A study of Mus musculus with 6 samples.

Results

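The genes described here drive or restrain the passage of a cell from G1 into S phase: the D cyclins Ccnd1, Ccnd2 and Ccnd3, the E cyclins Ccne1 and Ccne2, their partner kinases Cdk2, Cdk4 and Cdk6, and the inhibitors Cdkn1b (p27) and Cdkn2c (p18). They were chosen by name, and all 10 had a row among the 11604 genes of the table and passed the filter on low counts. RNA came from CT26, a wild-type colon carcinoma line of the BALB/c mouse, in 3 libraries treated with the solvent DMSO and 3 treated with 10 µM irinotecan (CPT-11) for 24 h. Irinotecan is a prodrug whose active product, SN-38, traps DNA topoisomerase I on DNA. The design text of the series describes duplicates, whereas 3 libraries per group are labelled and were used. The labels do not say whether the 3 libraries of a group were separate cultures, so each p-value reflects the spread among these libraries alone, which may be technical.

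D cyclins are made in response to growth factor signals. They bind CDK4 or CDK6, and the complexes phosphorylate the retinoblastoma protein (RB), which releases E2F transcription factors. E2F in turn drives the E cyclins, which activate CDK2 and complete the inactivation of RB. Cdkn2c belongs to the INK4 inhibitors, which bind CDK4 and CDK6 and keep D cyclins off. Cdkn1b belongs to the CIP/KIP inhibitors, with Cdkn1a (p21), and blocks cyclin E with CDK2.

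Libraries held 16052326 to 17294496 counts over the listed genes, and the TMM scaling factors (a scaling that lines up the bulk of genes between libraries) ran from 0.979 to 1.01. Mitochondrial genes took 1.885% to 2.23% of the counts. The table lists only genes with reads in every library, so absent markers cannot be seen at 0. Of 9 epithelial and colon markers 3 had a row, of 10 haematopoietic markers 1 and of 6 endothelial markers 0. Epcam, Cdh1, Krt8 and Krt19 were among those with no row in the table analysed here. The epithelial markers summed to 96.5 to 103 CPM (counts scaled to a common library size) in DMSO and 87.3 to 98.6 with irinotecan. Krt18, a keratin, fell by 0.23 on the log2 scale (edgeR adjusted p = 0.025, and up to 0.14 with a library left out), and Krt20 had a log2 fold change of 0.04 (adjusted p = 0.76). Cdh17, an intestinal cadherin, rose by 1.40 ± 0.33 (SE, adjusted p = 0.0047) from 0.9 CPM. Cd68, the haematopoietic marker listed, stood at 2.01 to 3.07 CPM in DMSO and 3.72 to 4.23 with irinotecan (adjusted p = 0.018, and up to 0.07 with a library left out). The part of other cells in the results was not tested.

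Start regions are shown for Ccnd3, the gene of the group that changed, and for Cdk4 and Cdk2, which did not pass the test and whose regions hold E-boxes or an E2F motif. Each line is the 250 bases before an annotated start, from RefSeq on GRCm38.p6, 5′ to 3′ on the strand of the gene. RefSeq gives Ccnd3 a pair of start regions, at chr17:47504801-47505050 and chr17:47593217-47593466 on the plus strand. The counts are per gene and do not show which start was used. The Cdk4 region lies at chr10:127063285-127063534 on the plus strand and the Cdk2 region at chr10:128705052-128705301 on the minus strand. Capitals mark matches, on either strand, to the motifs searched.
Ccnd3 start 1: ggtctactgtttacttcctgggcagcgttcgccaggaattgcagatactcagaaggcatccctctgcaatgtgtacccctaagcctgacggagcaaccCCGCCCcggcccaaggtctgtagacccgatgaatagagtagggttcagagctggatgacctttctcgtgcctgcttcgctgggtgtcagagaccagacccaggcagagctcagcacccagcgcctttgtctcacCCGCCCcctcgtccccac
Ccnd3 start 2: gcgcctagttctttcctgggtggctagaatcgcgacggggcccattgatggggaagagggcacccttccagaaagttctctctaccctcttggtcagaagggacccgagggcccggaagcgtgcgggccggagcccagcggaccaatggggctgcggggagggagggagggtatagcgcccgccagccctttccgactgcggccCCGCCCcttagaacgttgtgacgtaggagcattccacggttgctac
Cdk4 start: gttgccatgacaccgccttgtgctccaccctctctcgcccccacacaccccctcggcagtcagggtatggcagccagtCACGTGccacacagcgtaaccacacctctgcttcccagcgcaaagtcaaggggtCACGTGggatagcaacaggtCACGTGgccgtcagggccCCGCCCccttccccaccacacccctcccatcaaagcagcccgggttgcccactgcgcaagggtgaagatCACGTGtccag
Cdk2 start: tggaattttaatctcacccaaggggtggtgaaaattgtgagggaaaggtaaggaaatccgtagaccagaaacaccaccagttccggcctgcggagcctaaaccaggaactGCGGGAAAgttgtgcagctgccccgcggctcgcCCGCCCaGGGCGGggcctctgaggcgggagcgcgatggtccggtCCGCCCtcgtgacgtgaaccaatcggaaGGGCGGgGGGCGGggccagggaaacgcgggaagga

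The motifs searched were the E2F motif (TTTCGCGC, TTTGGCGC, TTTCCCGC or TTTGCCGC), the CRE (TGACGTCA), the AP-1 motif (TGANTCA), the E-box (CACGTG) and the GC box (GGGCGG). RefSeq start regions were matched for 7 of the 10 genes, in 9 windows. No region was matched for Ccnd1, Ccnd2 or Ccne2, so theirs were not searched. Cdk4 held 4 E-boxes, which begin 172, 118, 98 and 11 bases before the start, and Cdk6 held 1. The E-box, the binding motif of MYC, was in 6.02% of all 32851 windows. Cdk2 held 1 E2F motif, which was in 1.86% of all windows. The Ccnd3 regions held only GC boxes, 2 in the upstream region and 1 in the downstream region. GC boxes were in 7 of the 9 windows and in 32.7% of all, and neither the CRE nor the AP-1 motif (1.55% and 6.75% of all windows) was in any of the 9. GC content was 42.8% to 77.2% in the 9 windows, against a median of 52.4% over all, and was not adjusted for. A match is a description of these letters and not a site of binding.

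Of the 10 genes, Ccnd3 rose with irinotecan and the other 9 did not pass the test (edgeR, adjusted p under 0.05 over all genes tested). Over all 11599 genes tested, 22.1% were called, 11.8% higher and 10.3% lower, so 1 call among 10 is no excess over the background. The median log2 fold change of the 10 genes was 0.01, and the median size of the change was 0.03, against 0.13 over all genes. That contrast was not matched for level. Most of the 10 genes stood above the median of all genes in DMSO, 37.3 CPM, and sizes are noisier at low counts. Standard errors of the 10 log2 fold changes were 0.046 to 0.089. For the 9 genes not past the test, the 95% intervals together ran from 0.883-fold to 1.24-fold. At an unadjusted p under 0.05 the number was also 1. The share of all genes at that cutoff is not given here, and the 22.1% above does not apply to it.

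**Figure D1:**
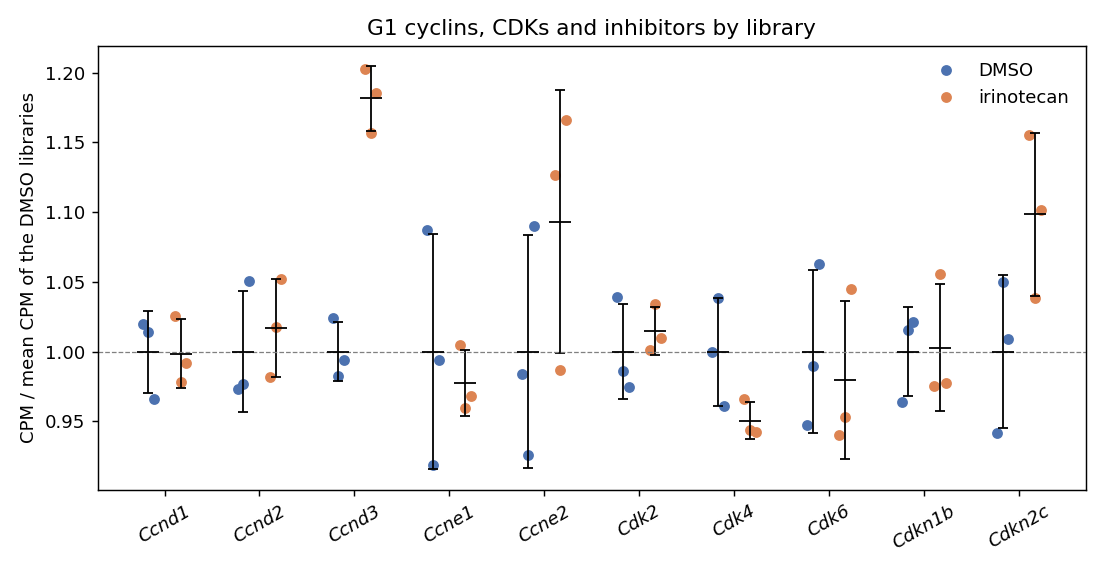
CPM of each G1 gene in each library, divided by the mean of the 3 DMSO libraries; points are libraries and black bars the mean and SD (n = 3). The irinotecan libraries lie above the DMSO libraries without overlap for Ccnd3, at 87.7 to 91.1 against 74.5 to 77.6 CPM, and the groups overlap for the other 9 genes.

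Ccnd3 (ENSMUSG00000034165, chromosome 17, 47815976 to 47910616, plus strand, GRCm39) encodes cyclin D3. It stood at 77.6, 74.5 and 75.3 CPM in DMSO replicates 1 to 3 and at 91.1, 87.7 and 89.9 CPM with irinotecan. Every irinotecan library lay above every DMSO library, and such separation in this direction was found for 19.3% of all genes tested (37.1% in either direction, 17.8% lower). The rise was 18.2% (95% interval 9.1% to 28%), or 0.24 on the log2 scale with an SE of 0.055 (edgeR adjusted p = 0.0037). It rests on 1214 to 1239 counts per DMSO library and 1510 to 1586 per irinotecan library. In the authors' deposited table Ccnd3 has an adjusted p of 0.0025 and a log2 fold change of 0.24 once its sign is set as irinotecan over DMSO, but the column of that table that marks regulated genes reads false for Ccnd3, as for the other 9 genes. The change lay at the 75.3 percentile of all genes by size. Bysl, a ribosome biogenesis gene on the opposite strand, overlaps Ccnd3 by 361 bases and fell by 0.20 (adjusted p = 0.013). In DMSO it stood at a mean of 88.5 CPM, above Ccnd3 itself at 75.8 CPM. The sources used here do not give strandedness, so reads of that stretch cannot be assigned, and their part in the result was not tested.

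Ccnd1 (ENSMUSG00000070348, chromosome 7, 144483668 to 144493662), cyclin D1, was measured at 897, 891 and 850 CPM in DMSO and at 902, 860 and 872 CPM with irinotecan. The groups overlapped, and the change was -0.141% with an interval from -6.51% to 6.66% (edgeR adjusted p = 0.98). Ccnd2 (chromosome 6, 127102125 to 127129156), cyclin D2, gave 376, 377 and 405 CPM in DMSO and 379, 393 and 406 CPM with irinotecan. It changed by 1.69%, with an interval from -5.09% to 8.96% (adjusted p = 0.77). Replicate 3 was the highest library of Ccnd2 in each group. On the opposite strand, LTO1 (16.7 CPM in DMSO) overlaps Ccnd1 by 1771 bases and 9330179D12Rik (1.58 CPM) overlaps Ccnd2 by 2805 bases, both at levels far below these cyclins.

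Per length, the D cyclins differed widely in level. In FPKM, which divides counts by gene length and library size, Ccnd1 stood at 185 ± 4.48 in DMSO (SD, n = 3), Ccnd2 at 40.5 ± 2.07 and Ccnd3 at 8.54 ± 0.233. Ccnd3 thus made up 3.66% ± 0.0742 of D cyclin FPKM in DMSO and 4.28% ± 0.016 with irinotecan. Its share was 3.7%, 3.57% and 3.7% in the DMSO libraries and 4.29%, 4.26% and 4.29% in the irinotecan libraries, without overlap. Ccnd1 made up 79% ± 1.08 and 78.2% ± 0.771, and Ccnd2 17.4% ± 1.04 and 17.5% ± 0.774, where the groups overlapped. D cyclin FPKM summed to 234 ± 3.03 in DMSO and 240.5 ± 3.97 with irinotecan. These sums are not TMM-scaled, so their difference is not read as a change. Ccnd1 alone stood at 185 and 188 FPKM, but at 879 and 878 CPM. The log2 ratio of Ccnd3 to Ccnd1, which does not depend on scaling between libraries, was higher with irinotecan by 0.24, and that of Ccnd3 to Ccnd2 by 0.22. An exact two-sided permutation over the 6 libraries gave p = 0.1 for each, the smallest it can give, and p = 0.3 when adjusted over the 6 ratios computed. Ccnd2 to Ccnd1 differed by 0.03 (exact p = 0.9, adjusted 0.9). These ratios were chosen after the values were seen.

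**Figure D2:**
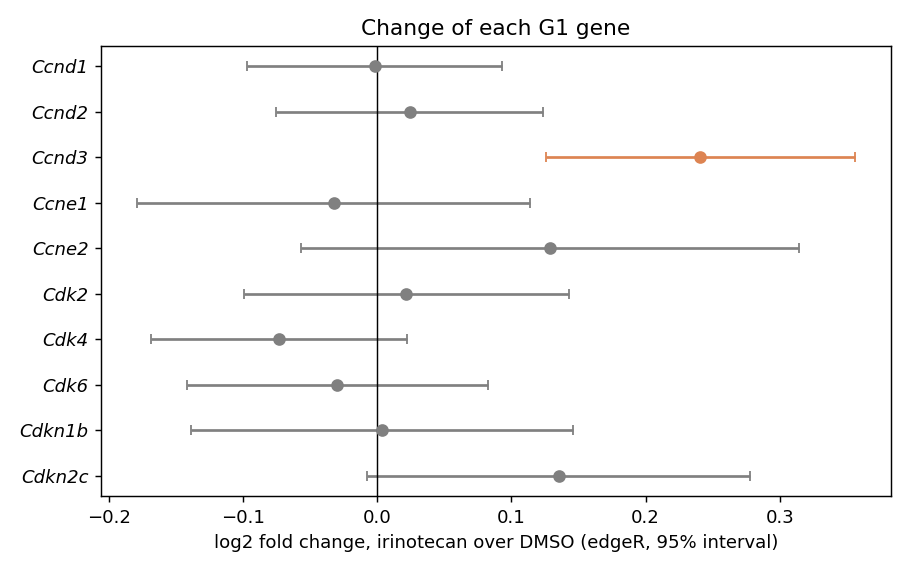
Log2 fold change of each G1 gene, irinotecan over DMSO, with its 95% interval from the edgeR fit of 3 against 3 libraries. The interval of Ccnd3 lies above 0, from 0.13 to 0.36, and those of the other 9 genes include 0.

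The E cyclins did not pass the test. Ccne1 (chromosome 7, 37797409 to 37806959), cyclin E1, read 53.8, 45.5 and 49.2 CPM in DMSO and 49.7, 47.5 and 47.9 CPM with irinotecan. The irinotecan libraries all lay inside the DMSO range, and the change was -2.23% (interval -11.7% to 8.23%, edgeR adjusted p = 0.79). Ccne2 (chromosome 4, 11191351 to 11204779), cyclin E2, gave 25.2, 23.7 and 28 CPM in DMSO and 28.9, 25.3 and 29.9 CPM with irinotecan. Irinotecan replicate 2 lay inside the DMSO range and the other 2 above it. The change was 9.32%, with the widest interval of the 10 genes, -3.88% to 24.3% (adjusted p = 0.33), at 387 to 523 counts per library. Ints8, on the opposite strand, overlaps Ccne2 by 5622 bases and had a log2 fold change of 0.13 (adjusted p = 0.12). It stood at a mean of 65.8 CPM in DMSO, against 25.7 for Ccne2, so the Ccne2 value is uncertain if the counting ignored strand. Ccne1 made up 71.7% ± 1.95 of E cyclin FPKM in DMSO and 69.4% ± 1.67 with irinotecan, and the groups overlapped. The log2 ratio of Ccne2 to Ccne1 differed by 0.16 (exact permutation p = 0.2, adjusted 0.4).

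The kinases did not pass the test either. Cdk4 (chromosome 10, 126899403 to 126903789), whose start region with 4 E-boxes is shown above, read 548, 569 and 527 CPM in DMSO and 529, 517 and 516 CPM with irinotecan. Of the irinotecan libraries, replicates 2 and 3 lay below all DMSO libraries and replicate 1 between them. The change was -4.95% (interval -11% to 1.56%, edgeR adjusted p = 0.28). Tspan31, on the opposite strand (96.6 CPM in DMSO), overlaps Cdk4 by 641 bases and fell by 0.16 (adjusted p = 0.046). Cdk6 (chromosome 5, 3391485 to 3581008), the other partner of D cyclins, read 183, 191 and 205 CPM in DMSO and 182, 184 and 202 CPM with irinotecan, a change of -2.05% (interval -9.37% to 5.87%, adjusted p = 0.74). Cdk2 (chromosome 10, 128533808 to 128540900), the partner of E cyclins, read 72.4, 68.7 and 67.9 CPM and then 69.8, 72.1 and 70.3 CPM, a change of 1.5% (interval -6.67% to 10.4%, adjusted p = 0.84). For all 3 kinases the groups overlapped. Per length, Cdk4 made up 92.4% ± 0.627 of the FPKM of Cdk4 and Cdk6 in DMSO and 92.2% ± 0.485 with irinotecan. Their log2 ratio, Cdk6 to Cdk4, differed by 0.04 (exact permutation p = 0.5, adjusted 0.6).

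Neither inhibitor passed the test. Cdkn1b (chromosome 6, 134897364 to 134902476) read 42.6, 44.9 and 45.1 CPM in DMSO and 43.1, 46.6 and 43.2 CPM with irinotecan, and changed by 0.256% (interval -9.16% to 10.7%, edgeR adjusted p = 0.98). Cdkn2c (chromosome 4, 109518073 to 109524386) read 44.6, 49.7 and 47.8 CPM in DMSO and 54.7, 49.2 and 52.2 CPM with irinotecan. Irinotecan replicate 2 lay below the highest DMSO library, and the change was 9.82% (interval -0.51% to 21.2%, adjusted p = 0.17). The log2 ratio of Cdkn2c to Cdkn1b differed by 0.13 (exact permutation p = 0.3, adjusted 0.45).

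Cdkn1a, the p53-induced relative of Cdkn1b, rose with irinotecan. It read 284, 349 and 311 CPM in DMSO and 469, 497 and 524 CPM with irinotecan, without overlap, and its log2 fold change was 0.66 with an SE of 0.063 (adjusted p = 5.2e-07). Per length, Cdkn1a stood at 87.4 ± 8.38 FPKM in DMSO (SD, n = 3), Cdkn2d at 28.1 ± 1.41, Cdkn2c at 17.4 ± 0.864 and Cdkn1b at 9.59 ± 0.306. Of the FPKM of these 4 inhibitors, Cdkn1a took 61.2% ± 1.28 in DMSO and 69.8% ± 0.912 with irinotecan. Cdkn2d (p19), the other INK4 gene listed, had a log2 fold change of 0.14 (adjusted p = 0.19). Cdkn1c, Cdkn2a and Cdkn2b have no row in the table analysed here.

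**Figure D3:**
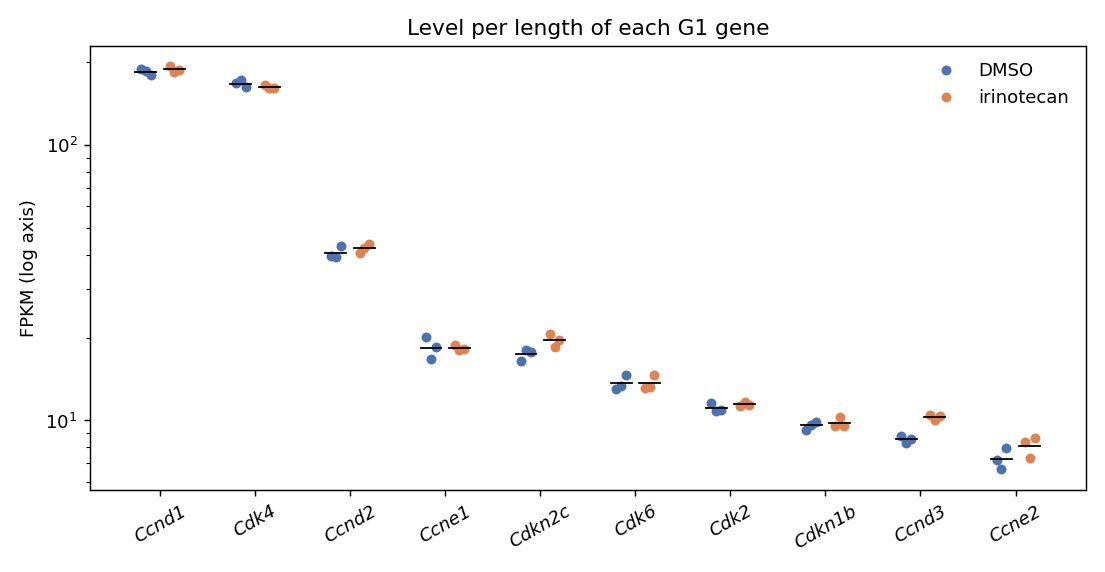
FPKM of each G1 gene in each library on a log axis, ordered by the mean of the DMSO libraries; points are libraries and black lines the means. Ccnd1 and Cdk4 stand highest, at 185 and 167 FPKM in DMSO, and Ccne2 lowest, at 7.26.

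By FPKM in DMSO the order was Ccnd1 (185), Cdk4 (167), Ccnd2 (40.5), Ccne1 (18.4), Cdkn2c (17.4), Cdk6 (13.7), Cdk2 (11.1), Cdkn1b (9.59), Ccnd3 (8.54) and Ccne2 (7.26). Neighbours in this order did not overlap between libraries, except Ccne1 and Cdkn2c. With irinotecan Ccnd3, at 10.3 ± 0.203 FPKM (SD, n = 3), stood before Cdkn1b, at 9.82 ± 0.444, and their libraries overlapped, as did those of Cdkn2c and Ccne1. Among all 11604 listed genes Ccnd1 ranked 208 and Cdk4 235 by mean FPKM, while Ccne2 ranked 5793.

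The lists around these genes were read as counts against the same background of 22.1% called. Some lists share genes (Ccna2, Cdc25a, Cdk7 and Ccnh, none of which passed the test), so their counts are not fully separate. Of 13 RB and E2F family genes, 3 rose, 1 fell and 9 missed the threshold, and the median log2 fold change was -0.00077. Rbl2 (p130), the RB relative of resting cells, rose from 12.2 ± 2.32 to 22.6 ± 4.26 CPM (SD, n = 3). Its log2 fold change was 0.89 with an SE of 0.14 (adjusted p = 4.4e-04). Tfdp2, a dimer partner of E2F, rose by 0.37 ± 0.081 (adjusted p = 0.0025). E2f8, a repressor E2F, rose by 0.16 (adjusted p = 0.046, and up to 0.25 over 13 alternatives). E2f4, the E2F that pairs with Rbl2, fell by 0.14 (adjusted p = 0.036, and up to 0.13 over 13 alternatives, with the call lost in 7 of them). Rb1 had a log2 fold change of 0.18 (adjusted p = 0.076). The activators E2f1, E2f2 and E2f3 had log2 fold changes of 0.07, 0.007 and -0.15 (adjusted p = 0.47, 0.97 and 0.10).

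Among 24 G1/S targets of E2F, 5 fell, 1 rose and 18 did not pass, at a median of -0.02. Mcm2, Mcm3 and Pola1, genes of the replicative helicase and of DNA polymerase alpha, fell by 0.27, 0.15 and 0.24 on the log2 scale, the call of Mcm3 being lost in 5 of 13 alternatives (adjusted p = 0.022, and up to 0.1). Orc1, a subunit of the origin recognition complex, rose by 0.45 ± 0.12 (SE, adjusted p = 0.012, and 0.063 without DMSO replicate 2). The number that fell was 2 when only total counts were scaled, 2 with either irinotecan replicate 1 or 3 or DMSO replicate 1 left out, and 3 with DMSO replicate 2 left out. Among 14 genes of S, G2 and M phases, 7 rose, 0 fell and 7 missed the threshold, at a median of 0.14. Ccnf, the cyclin of an SCF ubiquitin ligase, rose from 99.5 ± 1.33 to 123 ± 2.21 CPM (SD, n = 3), Ccnb1, cyclin B1, from 207 ± 6.09 to 245 ± 11.6 CPM and Cdc20 by 0.42 ± 0.06 (SE) on the log2 scale. Without irinotecan replicate 1 or 2 the number that rose was 4. Ccna2, cyclin A2, stood at 202 ± 4.75 and 219 ± 2.54 CPM (adjusted p = 0.083), and Mki67 had a log2 fold change of -0.06 (adjusted p = 0.44).

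**Figure D4:**
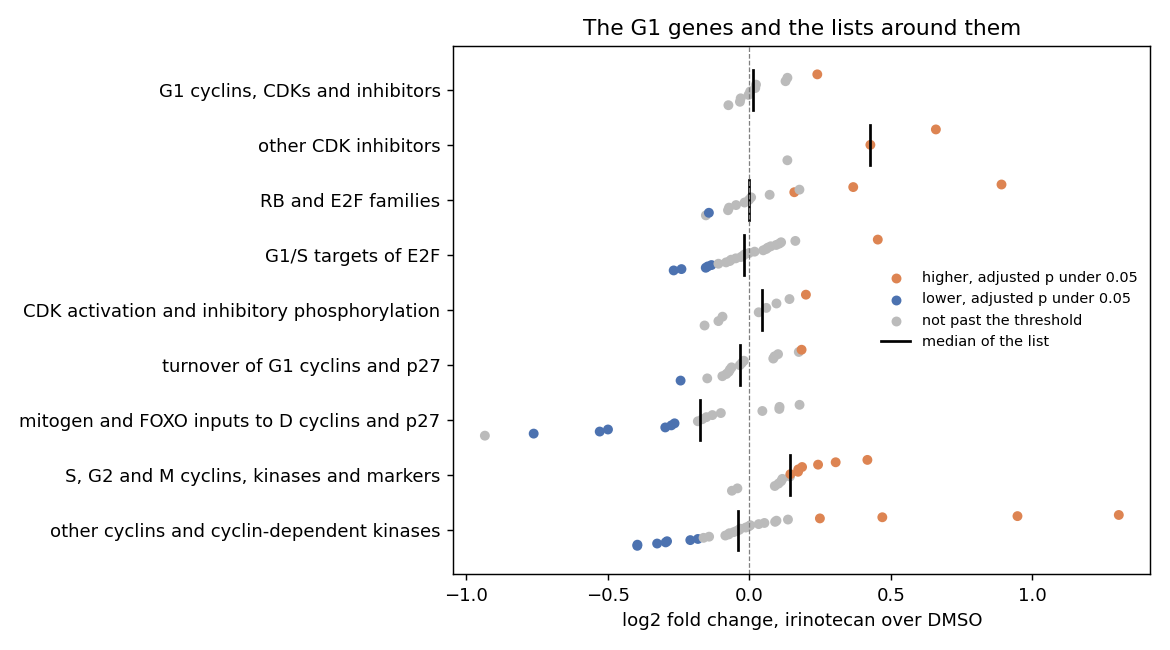
Log2 fold change, irinotecan over DMSO, of each gene in the G1 group and in the lists around it; each point is a gene, colour gives the edgeR call and black bars are list medians. The 10 G1 genes lie between -0.07 and 0.24. Among the far points of other lists, Cdkn1a, Rbl2 and Ccng1 lie at 0.66, 0.89 and 1.31. On the other side lie Jun at -0.76 and Fos, not past the threshold, at -0.93. The medians of these other lists lie between -0.17 and 0.43.

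Upstream of the D cyclins and of Cdkn1b, 6 of 16 mitogen and FOXO inputs fell, 0 rose and 10 did not pass, at a median of -0.17. Myc fell from 260 ± 12.5 to 184 ± 8.61 CPM (SD, n = 3). Its log2 fold change was -0.50 with an SE of 0.051 (edgeR adjusted p = 3.5e-07). Cdk4 and Cdk6, whose start regions hold E-boxes, had log2 fold changes of -0.07 and -0.03 (edgeR adjusted p = 0.28 and 0.74). A link between Myc and these kinases was not tested. Jun and Ets2, transcription factors of growth factor signalling, fell by 0.76 and 0.30. Foxo3, a FOXO factor known to act on Cdkn1b, had a log2 fold change of 0.18 (adjusted p = 0.21). Foxo1, another FOXO gene of the list, had the opposite sign, at -0.18 (adjusted p = 0.16). Ccnd1, a known target of AP-1 and ETS factors, had the interval of -6.51% to 6.66% given above. Its start region was not among those searched for motifs. When only total counts were scaled, 2 of these inputs rose.

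Of 15 genes that turn over G1 cyclins and p27, 1 rose, 1 fell and 13 did not pass, at a median of -0.03. Cul3, the cullin of a ligase that acts on cyclin E, fell by 0.24 ± 0.048 on the log2 scale (SE, edgeR adjusted p = 0.0011). Fzr1 (CDH1), which activates the anaphase-promoting complex, rose by 0.19 (adjusted p = 0.032, and up to 0.19 over 13 alternatives). Skp2, the F-box protein that targets p27, had a log2 fold change of -0.07 (adjusted p = 0.48). Of 8 genes of CDK activation and inhibitory phosphorylation, 1 rose and 7 did not pass. That gene was Cdc25b, a phosphatase that activates CDKs, at 185 ± 5.05 and 213 ± 12 CPM (SD, n = 3, adjusted p = 0.0069, and 0.066 without irinotecan replicate 1).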

How the data were processed

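RNA of 6 CT26 libraries was sequenced, 3 with DMSO and 3 with irinotecan, grouped by title. The submitters' processing notes name, with no role or order, the tools DESeq2 1.22.1, edgeR 3.24.3, featureCounts 1.6.2, fastp 0.19.3, HISAT2 2.1.0 and StringTie 1.3.4d, and the build GRCm39. The table deposited by the authors holds, per the file headers, whole-number counts and FPKM values per gene and library, and the authors' log2 fold changes and p-values. The deposited log2 fold changes are signed as DMSO over irinotecan (correlation of -1.0 across genes with the ratio from counts), and the sign was reversed here. No listed gene has a count of 0: the lowest count is 1, and the lowest sum over the 6 libraries is 58. Genes with few counts thus appear to have been left out before deposit.

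The test of the counts was the quasi-likelihood test of edgeR 4.0.16, in R 4.3.3 (filterByExpr, which kept 11599 genes, TMM, robust glmQLFit, glmQLFTest) and Benjamini-Hochberg adjustment over all genes, at a threshold of 0.05. The standard error is the log2 fold change over the square root of F, and 95% intervals use its t distribution. CPM values are TMM-normalized. Depth limits precision together with 3 libraries per group. FPKM values were used as deposited, for levels per length only, with no pseudocount. The scripts were tested on simulated data. No pair of replicates agreed within sampling noise (chi-square divided by degrees of freedom, 4.24 to 6.45).

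Alternatives were DESeq2 1.42.0, limma-voom 3.58.1, total-count and upper-quartile scaling, no filter, a filter of 1 CPM in 3 libraries, a replicate block and leaving out each library. The genes and lists were chosen with earlier results of these data known. Beside the 10 genes and Cdkn1a, the text names up to 3 higher and 3 lower genes of each list by smallest p, or the smallest p where none passed; other genes named were chosen after their values were seen. For Ccnd3 the 2 genes nearest over the 6 libraries (Euclidean distance of centred log2 CPM, prior count 2) are given.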

Additional observations from a re-analysis of the deposited data

How the results depend on the processing

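Ccnd3 was the gene of the 10 past the threshold in each of the 13 alternatives (log2 fold change 0.23 to 0.27, adjusted p from 1.9e-04 to 0.024), and the other 9 passed in 0 of them. Changes near 0 took the other sign in some. Ccnd1 was 0.028 with total counts as the only scaling, 0.011 with upper-quartile scaling and -0.026 to 0.012 with a library left out. With a library left out Ccnd2 ranged from -0.00092 to 0.061, Ccne1 from -0.090 to 0.032, Cdk6 from -0.079 to 0.016 and Cdkn1b from -0.035 to 0.023. Cdk6 was 0.00014 with total counts alone, and Cdkn1b -7.0e-05 with DESeq2. The ratio of Ccnd2 to Ccnd1 ranged from -0.0071 to 0.087 and of Cdk6 to Cdk4 from -0.011 to 0.12, in alternatives chosen after seeing the data.

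Over all genes, 1369 were higher and 1190 lower. Leaving out a library gave 804 to 1211 higher and 589 to 1151 lower, the lowest without irinotecan replicate 1, and 726 lower without DMSO replicate 2. With total counts alone 66.1% of calls were higher, against 53.5%, and 59.1% with upper-quartile scaling. The replicate numbers do not pair the libraries by the labels. To look for pairing, the mean of its group was subtracted from the log2 CPM of each gene. The correlation of these deviations between same-numbered libraries was 0.12, 0.04 and 0.085, although each library correlated best with its own number. Deviations within a group are tied to each other, so the correlations are not independent. With the replicate block 1820 genes were lower and 3628 changed in all.

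In the lists, E2F targets higher were 3 with total counts alone or the block, 2 with upper-quartile scaling and 0 to 2 with a library left out; those lower were 2 with total counts alone and 2 to 5 with a library left out. RB and E2F genes lower were 0 with either scaling, 2 with the block and 0 to 1 with a library left out. Turnover genes higher were 2 with either scaling, 4 with the block and 0 to 1 with a library left out. Mitogen inputs higher were 2 with total counts alone or the block, and 10 were lower with the block. Genes of S, G2 and M higher were 9 with total counts alone, 10 with the block, 5 with DESeq2 and 4 to 7 with a library left out. Other CDK inhibitors higher were 1 to 2 and CDK activation genes higher 0 to 1 with a library left out. The cause was not tested.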

Other observations

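Of 28 other cyclins and cyclin-dependent kinases, most of them with roles in transcription or outside G1, 4 rose, 7 fell and 17 did not pass (edgeR, 22.1% called over all genes). Ccng1 and Ccng2, the G-type cyclins, rose by 1.31 ± 0.047 and 0.95 ± 0.1 on the log2 scale (SE), Ccng2 from 19.3 ± 3.12 to 37.2 ± 3.85 CPM (SD, n = 3, adjusted p = 1e-06). Cdk19, a Mediator kinase, rose from 17 ± 0.406 to 23.5 ± 0.495 CPM (adjusted p = 5.5e-04), while Cdk8, its paralog, fell by 0.18 (adjusted p = 0.014). Ccnl1, a cyclin of RNA processing, fell from 101 ± 9.92 to 76.7 ± 2.86 CPM (adjusted p = 1.9e-04). Cdk14 and Cdk17, kinases that bind other cyclins, fell by 0.29 ± 0.056 and 0.40 ± 0.073. Cdkn3, a phosphatase of CDKs, rose by 0.43 ± 0.13 (adjusted p = 0.02), but missed the threshold when DMSO replicate 1, irinotecan replicate 1 or irinotecan replicate 2 was left out (0.086 to 0.11).

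Over the 6 libraries, the genes with the pattern nearest to Ccnd3 among 11598 were Twsg1 (distance 0.0336 in log2 CPM) and Scrn1 (0.0389), where the distance of Ccnd3 from its own mean was 0.3. Their log2 fold changes were 0.23 and 0.26, against 0.24 for Ccnd3. Both genes were picked by closeness over these same libraries, so similar changes follow from the choice.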
